A study of Mus musculus with 16 samples.

Results

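The genes described here are the core of the Myc, Max and Mxd network of transcription factors: Myc, Max, Mxd1, Mxd3, Mxd4, Mxi1 and Mnt. They were taken by symbol: every probe set of the deposited array table that the platform annotation assigns to a single one of the 7 symbols. This gave 15 probe sets, of 45141 in the table, for 6 of the 7 genes: 1 for Myc, 3 for Mxd1, 3 for Mxd3, 4 for Mxd4, 2 for Mxi1 and 2 for Mnt. Max is named by no single-gene probe set of that annotation and its transcript was not analysed here.

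Myc is a basic helix-loop-helix leucine zipper protein that binds DNA as a heterodimer with Max, at E-box sites, and activates genes of ribosome production, nucleotide and polyamine synthesis and the cell cycle. The Mxd proteins, Mxi1 (also called Mxd2) and Mnt pair with the same partner, bind the same sites and recruit Sin3 and histone deacetylase complexes that repress transcription. In T cells, Myc is induced by antigen receptor signalling and drives growth and metabolic change before the first division. Tsc1, with Tsc2, restrains the kinase complex mTORC1, which promotes cell growth.

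Wild-type and Tsc1-deficient naive T cells, sorted from mice of C57BL/6 background, were compared on 16 arrays. For CD4 cells each genotype had 3 arrays without stimulation (0 h) and 3 after 4 h of plate-bound anti-CD3 and anti-CD28, which engage the antigen receptor and its costimulator. For CD8 cells each genotype had 2 arrays, without stimulation only. The sources used here give neither the driver of the Tsc1 deletion, nor the age of the mice, nor whether replicate arrays are different mice, and the p-values therefore cover array-to-array spread, which may be technical in part. One sentence of the treatment text names a HIF1a-deficient strain. The genotype entries and titles were followed, and the title of every deficient sample names Tsc1.

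Levels are log2 RMA signals (RMA is a background correction, quantile normalization and probe summary for Affymetrix arrays), so a difference of 1 is a factor of 2, and the median of the whole table was 3.36. Quantile normalization brings all arrays to nearly the same distribution (array medians 3.34 to 3.37). A rise or fall is therefore relative to the array, and a change in total RNA per cell would not show. Signals of different probe sets were not compared with each other, since probe sets differ in affinity. Differences are given ± SE from a limma model over all 16 arrays, group means ± SD. A probe set was called when its Benjamini-Hochberg adjusted p over 45037 probe sets was under 0.05. Counts of genes use the brightest probe set of each gene. In RNA from a sorted population, fewer cells of a type and less RNA per cell cannot be told apart.

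The Tsc1 probe set 1455252_PM_at read 7.25 to 7.54 on wild-type and 6.22 to 6.54 on Tsc1-deficient CD4 arrays, and 6.88 to 6.99 and 6.36 to 6.41 on CD8 arrays, and it was lower by genotype in all 3 settings (-0.83, -1.06 and -0.55). The other 2 Tsc1 probe sets did not pass the test in any of them. The CD8 difference missed the threshold when wild-type CD8 replicate 1 (-0.50, adjusted p = 0.164) or 2 (-0.61, 0.0633) was left out, and without Tsc1-deficient CD8 replicate 1 (-0.53, adjusted p = 0.0573) or with only the groups compared (-0.55, 0.241). With the 3 Tsc1 probe sets averaged, the differences were -0.38 (adjusted p = 0.00776), -0.41 (0.00328) and, in CD8 cells, -0.13 (0.554). The summed linear signal of 3 CD8 lineage markers was 8079 to 9302 in CD8 groups and 201 to 836 in CD4 groups, that of 3 CD4 lineage markers 54.8 to 64.3 and 208 to 681, and that of 6 T cell markers 16855 to 19172 at 0 h and 5957 to 9567 after 4 h. The 8 measured neutrophil markers summed to 79.1 to 323 on wild-type arrays of the 3 settings and 284 to 1288 on Tsc1-deficient arrays. Of them, Elane was below the table median in every group, and Ngp, S100a8, S100a9 and Camp were called higher in Tsc1-deficient CD4 cells at 4 h, with 0 called at 0 h in either lineage. The 7 natural killer cell markers summed to 631 to 683 in wild-type and 1458 to 1730 in Tsc1-deficient CD4 cells at 0 h, with 1 called (Klrd1). Klrd1 made the largest contribution to that sum, with means of 8.87 and 10.29. Gzma (4.86 and 6.06) and Eomes (5.57 and 6.78) were not called, and Nkg7 read 6.57 and 6.52. Ncr1, Klrb1c and Klra8 were below the table median in every group. In wild-type CD8 cells Klrd1, Eomes and Nkg7 read 11.69, 8.13 and 11.35. B cell markers (7 measured) had 0 called by genotype in CD4 cells and 1 in CD8 cells, erythroid markers (3) had 0 called throughout, myeloid markers (9) had 3 called higher by genotype at 4 h (Lyz2, Mpeg1 and Cd68), and regulatory T cell markers (7) had 2 called higher and 1 lower there. Replicate arrays correlated at 0.987 to 0.996 over all probe sets. The 3' to 5' difference of the Gapdh control probe sets was 0.956 on Tsc1-deficient 4 h CD4 replicate 1, 0.642 on Tsc1-deficient CD8 replicate 2 and 0.0241 to 0.404 on the other 14 arrays.

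RefSeq promoter windows (GRCm38.p6, 300 bases from 250 before to 50 after an annotated start) were matched by symbol for 6 of the 7 genes, 8 windows in all, with 3 for Mxi1; Myc had none. The E-box that Myc and the Mxd proteins share, CACGTG, was searched on both strands along with 5 other motifs. It was present in 3 of the 8 windows, those of Max, Mnt and Mxd4, against 7.15% of all 32851 windows in the table. It began 3 bases before the start of Max, 123 before Mnt and 219 before Mxd4. The stretches around the Mnt and Mxd4 matches are shown because the network's own site lies there, with the E-box in capitals: Mnt at chr11:74830774-74830833 on the plus strand and Mxd4 at chr5:34187897-34187956 on the minus strand.
Mnt: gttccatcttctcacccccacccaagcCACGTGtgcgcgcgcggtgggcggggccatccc
Mxd4: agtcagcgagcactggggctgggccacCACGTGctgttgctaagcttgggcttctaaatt

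The FOXO site TGTTTAC was found in 1 of the 8 windows, the third of Mxi1, against 3.65% of all windows. It is shown on the opposite strand as GTAAACA, in capitals, at chr19:53329445-53329497 (plus strand), because FOXO factors are held in check by Akt, a kinase that also acts on the Tsc1 and Tsc2 complex.
Mxi1: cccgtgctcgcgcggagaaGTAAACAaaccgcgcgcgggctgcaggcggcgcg
The Mxd1 window held no E-box, and neither the AP-1 site TGAGTCA (5.20% of all windows) nor the EGR site GCGTGGGCG (0.612%) was found in any of the 8 windows. It held 4 matches to CCAAT, a motif present in 37.4% of windows and in 2 of the 8, and 6 to GGGCGG, present in 35.7% of windows and in 7 of the 8. The part of the Mxd1 window before the start is printed because the Mxd1 probe set had the widest span of group means of the 6 genes, with CCAAT in capitals, at chr6:86669160-86669409 on the minus strand.
Mxd1: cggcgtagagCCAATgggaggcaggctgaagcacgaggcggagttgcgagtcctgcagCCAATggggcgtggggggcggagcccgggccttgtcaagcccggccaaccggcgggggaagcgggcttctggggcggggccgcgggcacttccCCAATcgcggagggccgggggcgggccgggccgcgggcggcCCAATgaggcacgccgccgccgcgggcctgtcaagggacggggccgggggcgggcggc
These matches describe letters in the reference sequence and do not show binding in these cells.

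Of the 15 probe sets, 10 were above the table median on all 16 arrays, including the brightest probe set of each of the 6 genes. Probe set 1422002_PM_at of Mxd1 was above it on 4 of the 16 arrays, and 1422970_PM_at and 1448878_PM_at of Mxd3, 1422575_PM_at of Mxd4 and 1418193_PM_at of Mnt on 0. The 6 group means of the brightest probe set spanned 3.62 for Mxd1, 1.63 for Mxi1, 1.06 for Myc, 0.98 for Mxd4, 0.60 for Mxd3 and 0.34 for Mnt. Background shares given below are over all genes or probe sets, dim ones included. Without the probe sets whose group means were all at or below the table median, 24364 remained. Of those, 6.64%, 12.0% and 6.82% were called by genotype (CD4 at 0 h, CD4 at 4 h and CD8). On stimulation, 50.2% and 55.5% were called in wild-type and Tsc1-deficient cells.

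**Figure D1:**
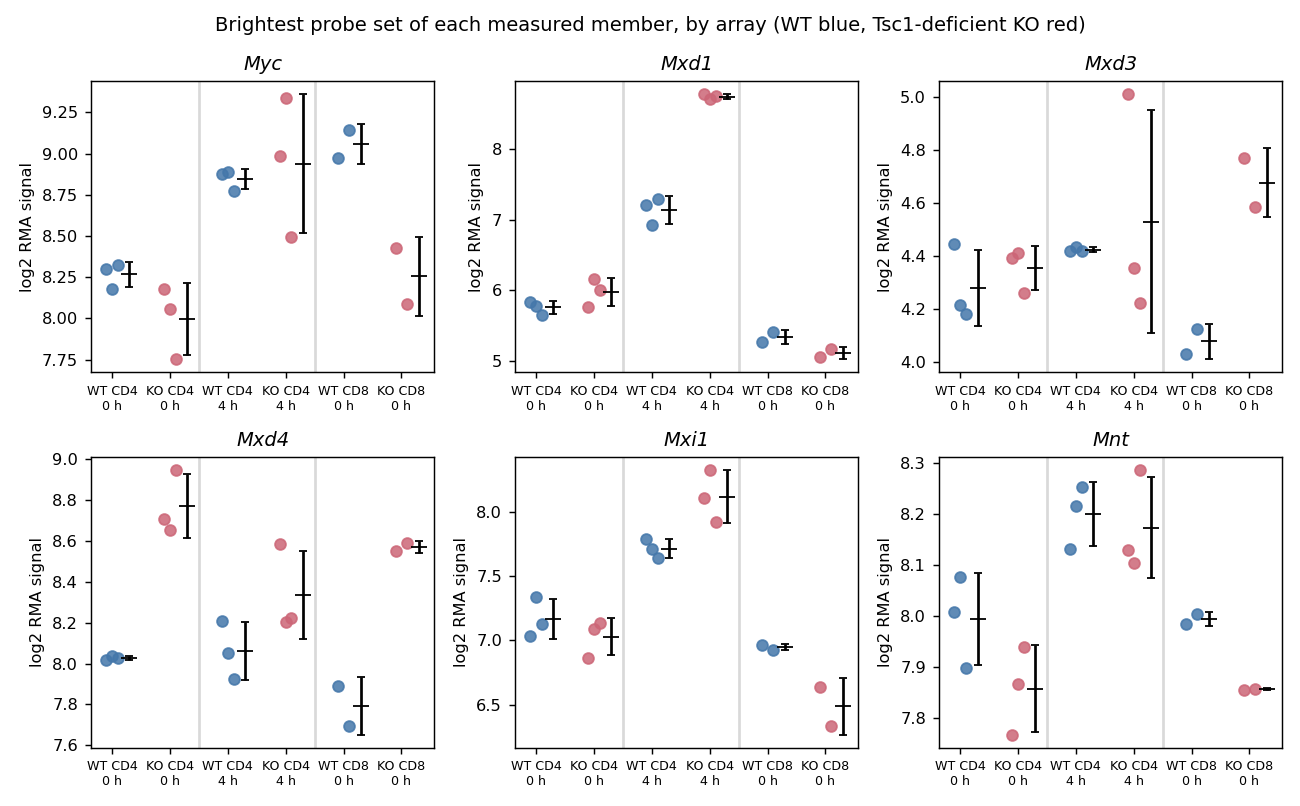
Log2 RMA signal of the brightest probe set of each of the 6 measured genes on every array (points; wild-type blue, Tsc1-deficient red), with the mean ± SD of each group in black (n = 3, CD8 n = 2). Mxd1 lies at 8.70 to 8.77 in Tsc1-deficient CD4 cells after 4 h and at 5.06 to 7.30 in the other groups, and Mxd4 is higher in Tsc1-deficient cells of both lineages at 0 h.

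Loss of Tsc1 in unstimulated CD4 cells left Mxd4 higher, and Mxd4 was the 1 gene of 6 that passed the test (background 4.35% of 17097 genes; 3 of 15 probe sets, background 3.05%). Mxd4 encodes a Max-binding repressor of the Mxd family. Its brightest probe set, 1434378_PM_a_at, read 8.02, 8.04 and 8.03 in wild-type and 8.71, 8.66 and 8.95 in Tsc1-deficient cells. The groups did not overlap, and the SD of the wild-type arrays was 0.0111. The difference was 0.74 ± 0.12, 1.67-fold (adjusted p = 0.00201). Probe sets 1434379_PM_at (0.84, adjusted p = 0.0025) and 1422574_PM_at (0.62, adjusted p = 0.00769) also rose, the latter not without Tsc1-deficient replicate 2 (0.56, adjusted p = 0.0508), while 1422575_PM_at, below the table median, differed by -0.00 (interval -0.30 to 0.30).

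Myc, the activator of the network, read 8.30, 8.18 and 8.32 in wild-type and 8.18, 8.06 and 7.76 in Tsc1-deficient CD4 cells at 0 h. Every Tsc1-deficient array was below every wild-type array, if narrowly, and the difference of -0.27 did not pass (interval -0.63 to 0.09, adjusted p = 0.547). Arrays of the compared groups did not overlap for 2 of the 6 genes, Myc and Mxd4, and for 28.6% of all genes. Mxd1 differed by 0.22 (interval -0.03 to 0.47, adjusted p = 0.457) at its brightest probe set and by 0.46 at 1455104_PM_at (adjusted p = 0.0741), a probe set that did pass without Tsc1-deficient replicate 1 (0.62, adjusted p = 0.0168). Mxi1 (-0.14, interval -0.40 to 0.13), Mnt (-0.14, -0.33 to 0.05) and Mxd3 (0.07, -0.26 to 0.41) did not pass. The summed neutrophil and natural killer markers given above also differed in this comparison. The markers called were Klrd1 and Nrp1 (higher) and Runx3 and Capg (lower). The part of all these markers in the Mxd4 result was not tested.

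Stimulation for 4 h raised Mxd1, Myc and Mxi1 in wild-type CD4 cells, 3 of the 6 genes, all higher (background 30.4% called, 12.0% higher and 18.5% lower; 5 of 15 probe sets, background 26.9%). With dim probe sets left out, 50.2% of probe sets were called, and 3 of 6 is close to that share. Mxd1, a repressor associated with differentiation and cell cycle exit, read 5.84, 5.78 and 5.66 at 0 h and 7.21, 6.92 and 7.30 at 4 h. It rose by 1.38 ± 0.12, 2.61-fold (adjusted p = 2.64e-07), and probe set 1455104_PM_at rose by 1.23 (adjusted p = 2.88e-06). Every array at 4 h was more than 1 unit above every array at 0 h at the brightest probe set.

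Myc rose less than Mxd1 in these cells, from 8.30, 8.18 and 8.32 to 8.88, 8.89 and 8.77. The increase was 0.58 ± 0.17, 1.49-fold (adjusted p = 0.0179), with no overlap between the groups. It was lost without wild-type 0 h replicate 2 (0.53, adjusted p = 0.065) and without wild-type 4 h replicate 1 (0.56, adjusted p = 0.0537) or replicate 2 (0.56, adjusted p = 0.056). Mxi1, a second Max-binding repressor, went from 7.03, 7.34 and 7.13 to 7.79, 7.71 and 7.64, an increase of 0.55 ± 0.12 (adjusted p = 0.00323). Its other probe set, 1425732_PM_a_at, differed by 0.68 without passing (adjusted p = 0.0875); it passed in 5 of the alternative fits, among them those without Tsc1-deficient 4 h replicate 1 (adjusted p = 0.0142) and replicate 2 (adjusted p = 0.0251).

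The probe sets of Mxd4 gave different answers on stimulation of wild-type cells. The brightest read 8.21, 8.05 and 7.92 at 4 h, overlapping the 0 h arrays, and differed by 0.03 (interval -0.22 to 0.29), while 1422574_PM_at rose by 0.48 (adjusted p = 0.00597) and 1434379_PM_at differed by 0.33 (adjusted p = 0.0958; 0.0285 without Tsc1-deficient 4 h replicate 1). Mnt, a broadly expressed Max-binding repressor, read 8.01, 8.08 and 7.90 at 0 h and 8.13, 8.22 and 8.25 at 4 h, which did not overlap, and its difference of 0.21 did not pass (adjusted p = 0.107). Arrays of the groups did not overlap for 4 of the 6 genes and for 45.3% of all genes. Mxd3, a repressor known from proliferating cells, differed by 0.14 (interval -0.19 to 0.48).

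In Tsc1-deficient CD4 cells, stimulation changed 5 of the 6 genes: Mxd1, Mxi1, Myc and Mnt rose and Mxd4 fell (background 34.1% called, 13.2% higher and 20.9% lower; 7 of 15 probe sets, background 30.4%). With dim probe sets left out, 55.5% of probe sets were called. Mxd1 went from 5.76, 6.16 and 6.00 to 8.77, 8.70 and 8.74. The 3 arrays at 4 h (SD 0.0327) all lay above those at 0 h. The increase was 2.76 ± 0.12, 6.79-fold (adjusted p = 1.86e-10), and it ranked 85 of 17097 genes by the size of the change in either direction. Probe set 1455104_PM_at rose by 2.15 (adjusted p = 6.44e-09). The dim 1422002_PM_at rose by 0.52 (adjusted p = 0.0495), a call that was lost in 15 of 24 alternative fits, among them the fits without any 1 array other than 4 h replicate 1 of either genotype and the wild-type CD8 arrays (0.31 to 0.60, adjusted p 0.051 to 0.257).

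Mxi1 and Myc also rose in these cells. Mxi1 read 6.86, 7.09 and 7.13 at 0 h and 8.11, 8.32 and 7.92 at 4 h, up by 1.09 ± 0.12, 2.13-fold (adjusted p = 4.77e-06). Its other probe set, 1425732_PM_a_at, read 3.64, 4.06 and 4.27 at 0 h and 3.83, 5.37 and 4.70 at 4 h. Those arrays overlapped and it was not called, though it was without Tsc1-deficient 4 h replicate 1 (1.05, adjusted p = 0.00157). Myc read 8.18, 8.06 and 7.76 at 0 h and 8.98, 9.33 and 8.50 at 4 h, up by 0.94 ± 0.17, 1.92-fold (adjusted p = 0.000408). The 4 h arrays were the most scattered of any Myc group (SD 0.421), yet all lay above the 0 h arrays. Mnt rose by 0.32 ± 0.09 (adjusted p = 0.0117), from 7.77, 7.87 and 7.94 to 8.13, 8.10 and 8.29. That call was lost without Tsc1-deficient 0 h replicate 1 (0.27, adjusted p = 0.0601) or 4 h replicate 3 (0.26, adjusted p = 0.0586), and in a fit of only the groups compared (adjusted p = 0.055).

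Mxd4 fell by 0.43 ± 0.12 in Tsc1-deficient cells at its brightest probe set (adjusted p = 0.00993), from 8.71, 8.66 and 8.95 to 8.58, 8.20 and 8.22. All arrays at 4 h were below those at 0 h. Arrays of the groups did not overlap for 5 of the 6 genes and for 43.4% of all genes. The Mxd4 call was lost without Tsc1-deficient 0 h replicate 3 (-0.35, adjusted p = 0.0598) or 4 h replicate 2 (-0.37, adjusted p = 0.05), and with the gene's probe sets averaged (-0.10, adjusted p = 0.467). Probe set 1434379_PM_at differed by -0.32 (adjusted p = 0.0968) and was called without Tsc1-deficient 4 h replicate 1 (-0.50, adjusted p = 0.00468), and 1422574_PM_at differed by 0.17 (interval -0.08 to 0.42). Markers of several cell types moved in both stimulations. In wild-type and Tsc1-deficient cells, those called lower were 5 and 6 of 6 T cell, 7 and 6 of 9 myeloid, 4 and 3 of 7 B cell, 3 and 4 of 7 natural killer, 3 and 2 of 3 CD4 lineage and 3 and 3 of 3 CD8 lineage markers. Of the 7 regulatory T cell markers, 3 and 4 were called higher and 1 and 1 lower, and 0 neutrophil or erythroid markers were called. The summed regulatory T cell signal was 353 to 394 at 0 h and 435 to 527 at 4 h in wild-type cells, and 378 to 470 and 580 to 657 in Tsc1-deficient cells. That of myeloid markers went from 216 to 250 at 0 h to 99.2 to 108 at 4 h, and from 222 to 373 to 134 to 162. The part of these markers in the stimulation results was not tested.

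**Figure D2:**
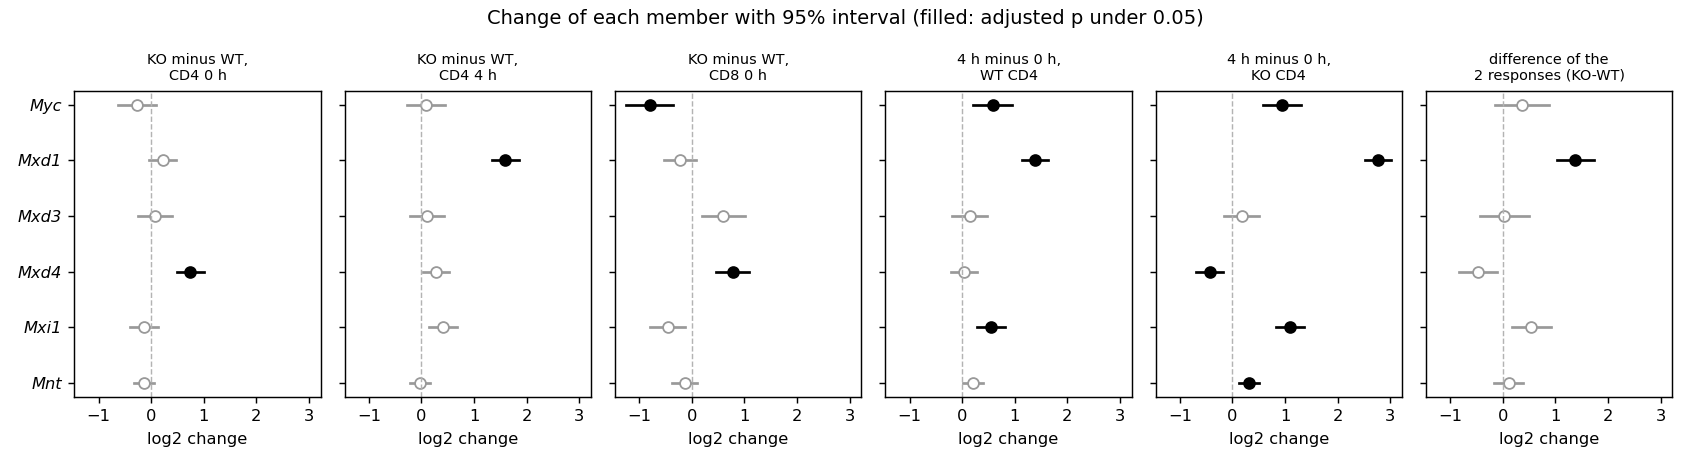
Log2 change of the brightest probe set of each gene (points) with its 95% interval (lines), in 6 comparisons; filled black points passed the adjusted threshold and open grey points did not. Mxd1 lies at 1.60 for genotype at 4 h and at 1.38 for the difference between the responses of the genotypes, and Mxd4 lies at 0.74 and 0.78 for genotype at 0 h.

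The response of Mxd1 to stimulation was larger in Tsc1-deficient than in wild-type CD4 cells. The difference of the responses (2.76 against 1.38) was 1.38 ± 0.17 (interval 1.03 to 1.73, adjusted p = 0.00199), and Mxd1 was the 1 gene of 6 that passed (background 0.690%; 2 of 15 probe sets, background 0.451%). It ranked 45 of 17097 genes by size and 9 by p. Probe set 1455104_PM_at gave 0.92 (adjusted p = 0.0421), a call that was lost in 15 of 24 alternative fits: with an intensity trend and robust prior (adjusted p = 0.052), with only the groups compared (adjusted p = 0.0558), and without any 1 of 13 arrays (0.77 to 1.00, adjusted p 0.0537 to 0.136), namely the 6 wild-type CD4 arrays, both wild-type CD8 arrays, the 3 Tsc1-deficient 4 h arrays and Tsc1-deficient 0 h replicates 1 and 3. The dim probe set gave 0.20 (interval -0.38 to 0.77).

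In this comparison the T cell markers Cd3g and Cd2 (2 of 6) and the natural killer marker Klrd1 (1 of 7) were called lower, and their part in the Mxd1 result was not tested. No other gene of the network passed this test of the difference. Mxi1 gave 0.54 (interval 0.17 to 0.92, adjusted p = 0.278), Mxd4 -0.47 (-0.83 to -0.11, adjusted p = 0.345) and Myc 0.36 (-0.15 to 0.88, adjusted p = 0.712). At the other Mxi1 probe set the means at 0 h and 4 h were 3.89 and 4.57 in wild-type and 3.99 and 4.64 in Tsc1-deficient cells. Mxd4 probe set 1434379_PM_at gave -0.65 (adjusted p = 0.224) and passed without Tsc1-deficient 4 h replicate 1, the array with the highest 3' to 5' control difference (-0.83, adjusted p = 0.0405). Mnt (0.11, -0.16 to 0.38) and Mxd3 (0.03, -0.44 to 0.50) were close to 0.

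At 4 h itself, Mxd1 was higher in Tsc1-deficient than in wild-type CD4 cells, and it was the 1 gene of 6 that passed (background 7.56%; 2 of 15 probe sets, background 5.69%). This comparison shares its arrays with those on stimulation and with the difference of the responses, so its values are not independent of theirs. Mxd1 read 7.21, 6.92 and 7.30 in wild-type and 8.77, 8.70 and 8.74 in Tsc1-deficient cells. The difference was 1.60 ± 0.12, 3.03-fold (adjusted p = 3.24e-06), rank 39 by size and 7 by p among 17097 genes, and probe set 1455104_PM_at gave 1.38 (adjusted p = 2.72e-05). Of the markers, 4 neutrophil, 3 myeloid and 2 natural killer genes (Gzma and Eomes) were called higher in this comparison. T cell markers had 1 higher and 3 lower (summed signal 8236 to 9567 in wild-type and 5957 to 7450 in Tsc1-deficient cells). Regulatory T cell markers had 2 higher (Ikzf2 and Nrp1) and 1 lower (Capg), with summed signals of 435 to 527 and 580 to 657. The part of all these markers in the Mxd1 result was not tested. The summed signals in wild-type and Tsc1-deficient cells at 4 h were 79.1 to 138 and 360 to 1203 for neutrophil, 99.2 to 108 and 134 to 162 for myeloid, and 202 to 238 and 300 to 451 for natural killer markers.

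Mxi1 was 0.41 higher in Tsc1-deficient cells at 4 h (interval 0.14 to 0.67) with no overlap of the arrays, and did not pass (adjusted p = 0.0751). It passed in a fit of 1 probe set per gene (adjusted p = 0.0477) and without Tsc1-deficient 4 h replicate 3 (0.50, adjusted p = 0.036). The other Mxi1 probe set, 1425732_PM_a_at, differed by 0.06 (interval -0.53 to 0.66, adjusted p = 0.955), with overlapping arrays. Mxd4 read 8.58, 8.20 and 8.22 against 8.21, 8.05 and 7.92, a difference of 0.28 (interval 0.02 to 0.53, adjusted p = 0.237). Myc differed by 0.09 (-0.27 to 0.45), Mnt by -0.03 (-0.22 to 0.16) and Mxd3 by 0.11 (-0.23 to 0.44). Arrays did not overlap for 2 of the 6 genes, Mxd1 and Mxi1, and for 23.9% of all genes.

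In unstimulated CD8 cells, Mxd4 was higher and Myc lower without Tsc1, 2 of the 6 genes (background 4.18%; 4 of 15 probe sets, background 3.11%). Mxd4 read 7.89 and 7.69 in wild-type and 8.55 and 8.59 in Tsc1-deficient cells. The difference was 0.78 ± 0.15, 1.71-fold (adjusted p = 0.0077), and probe sets 1434379_PM_at (1.13, adjusted p = 0.0015) and 1422574_PM_at (0.94, adjusted p = 0.00185) rose as well. A fit of only these 4 arrays called none of the 3 (adjusted p 0.174, 0.0929 and 0.104). That fit called 39 of all 45037 probe sets (0.0866%), against 1402 in the main fit, so a lost call in it says little about 1 gene. The brightest Mxd4 probe set lost its call without wild-type CD8 replicate 2 (0.68).

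Myc read 8.97 and 9.14 in wild-type and 8.43 and 8.09 in Tsc1-deficient CD8 cells, and the groups did not overlap. The difference was -0.80 ± 0.21, 1.74-fold lower, with an adjusted p of 0.0498, at the threshold. The call was lost in 15 of 26 alternative fits (adjusted p from 0.0137 to 0.244 over all of them), with a difference of -0.97 to -0.63. Among these were the fits without Tsc1-deficient CD8 replicate 2 (-0.63, adjusted p = 0.215), without wild-type CD8 replicate 1 (-0.89, adjusted p = 0.173) or 2 (-0.72, adjusted p = 0.244), and without any of the 6 wild-type CD4 arrays or of Tsc1-deficient CD4 0 h replicates 1 and 2 (-0.80, adjusted p 0.0579 to 0.0692), which enter only through the shared spread. Tsc1-deficient CD8 replicate 2, the lower of the pair, is also the array with the second highest 3' to 5' control difference.

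Mxd3 in CD8 cells read 4.03 and 4.12 in wild-type and 4.77 and 4.58 in Tsc1-deficient cells, 0.60 apart (interval 0.19 to 1.00) without passing (adjusted p = 0.115). It passed with its 3 probe sets averaged (0.53, adjusted p = 0.0317) and without Tsc1-deficient CD4 4 h replicate 1, an array outside the comparison (0.60, adjusted p = 0.00786). Of the 3 averaged, 1422970_PM_at and 1448878_PM_at were below the table median on every array. Mxi1 read 6.97 and 6.93 against 6.64 and 6.33, a difference of -0.46 (interval -0.79 to -0.14, adjusted p = 0.133). Mxd1 (-0.23, interval -0.53 to 0.08) and Mnt (-0.14, -0.37 to 0.09) did not pass. With 2 arrays a side, arrays did not overlap for 6 of the 6 genes, and for 46.0% of all genes. The summed neutrophil markers were 114 to 323 on wild-type and 407 to 897 on Tsc1-deficient CD8 arrays, with 0 called. B cell markers summed to 252 to 271 and 415 to 437, with Cd79b called higher. Regulatory T cell markers summed to 259 to 275 and 346 to 464, with Nrp1 called higher. The part of these markers in the CD8 results was not tested.

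**Figure D3:**
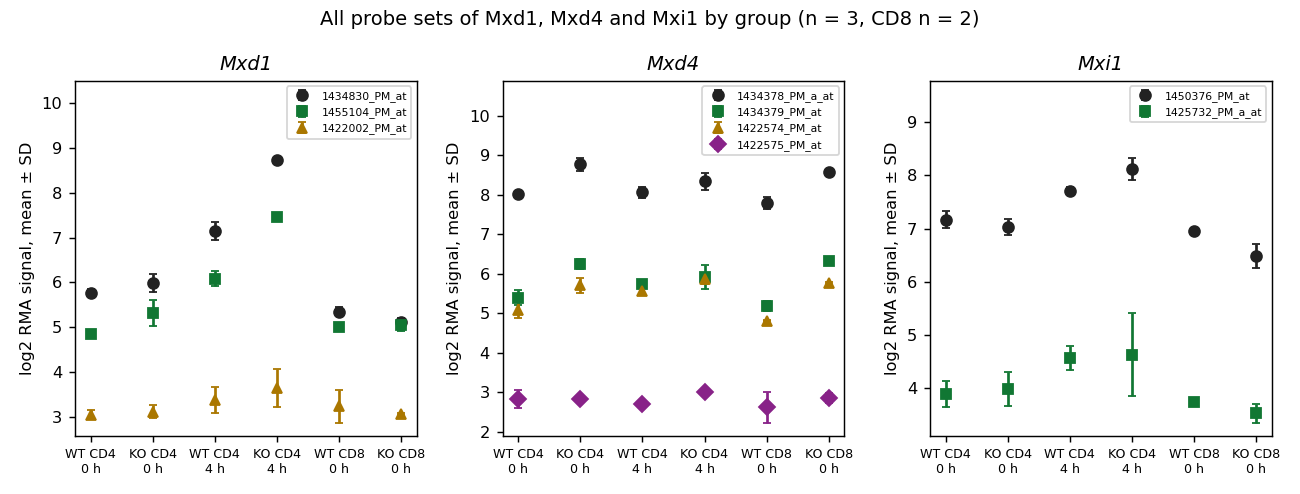
Mean ± SD of the log2 RMA signal of every probe set of Mxd1, Mxd4 and Mxi1 in the 6 groups (n = 3, CD8 n = 2); levels are not comparable between probe sets. The 2 brighter Mxd1 probe sets are highest in Tsc1-deficient CD4 cells at 4 h, and the 3 brighter Mxd4 probe sets are higher in Tsc1-deficient cells at 0 h, while the lowest probe set of Mxd4 stays below the table median of 3.36.

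The effect of genotype at 0 h was compared between CD8 and CD4 cells by an interaction in the same model. Of the 6 genes, 0 passed in limma (background 0.0643%; 0 of 15 probe sets, background 0.0466%), and 2 had an unadjusted p under 0.05. Those were Mxd1 (-0.44, interval -0.84 to -0.05, adjusted p = 0.699) and Mxd3 (0.52, 0.00 to 1.05, adjusted p = 0.737). Mxd4 differed by 0.03 between the lineages (-0.37 to 0.43), and Myc by -0.53 (-1.11 to 0.04, adjusted p = 0.757).

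Between lineages at 0 h, Myc was higher in wild-type CD8 than in wild-type CD4 cells by 0.79 ± 0.19, 1.73-fold (adjusted p = 0.034), the 1 gene of 6 that passed (background 3.95%; 1 of 15 probe sets, background 2.99%). The 3' to 5' control difference was 0.389 and 0.404 on the wild-type CD8 arrays and 0.111 to 0.204 on the wild-type CD4 arrays at 0 h. On Tsc1-deficient arrays it was 0.280 and 0.642 in CD8 cells and 0.118 to 0.235 in CD4 cells at 0 h. Its part in the lineage results was not tested. Arrays of the wild-type lineages did not overlap for 5 of 6 genes, against 36.9% of all genes. The call was lost without any 1 of the 5 arrays compared: wild-type CD4 replicate 1 (0.81, adjusted p = 0.083), 2 (0.75, 0.104) or 3 (0.82, 0.0781) and wild-type CD8 replicate 1 (0.87, 0.139) or 2 (0.70, 0.25). In Tsc1-deficient cells Myc differed between lineages by 0.26 (interval -0.15 to 0.66), and Mxd1 and Mxi1 were lower in CD8 cells, 2 of 6 genes (background 4.98%; 2 of 15 probe sets, background 3.55%), with no overlap of arrays for 4 of 6 genes against 35.9% of all. Mxd1 was lower by 0.86 ± 0.13 (-0.86, adjusted p = 0.001), but not with its probe sets averaged (-0.39, adjusted p = 0.0916). Mxi1 was lower by 0.54 (-0.54, adjusted p = 0.0425), and lost its call in 14 of 26 alternative fits, 9 of them leaving out 1 array: Tsc1-deficient CD4 0 h replicates 2 (-0.51, adjusted p = 0.132) and 3 (-0.49, 0.149), Tsc1-deficient CD8 replicate 2 (-0.39, 0.33), and, at an unchanged -0.54, wild-type CD4 0 h replicate 3, the 3 wild-type 4 h arrays and the 2 wild-type CD8 arrays (adjusted p 0.0557 to 0.0606).

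By group mean, Myc was highest in wild-type CD8 cells (9.06 ± 0.12), followed by the stimulated CD4 groups (8.94 ± 0.42 and 8.85 ± 0.06), whose arrays overlapped. The Tsc1-deficient 4 h arrays (8.50 to 9.33) also overlapped those of wild-type CD8 cells (8.97 to 9.14). The lower 3 were wild-type CD4 (8.27 ± 0.08), Tsc1-deficient CD8 (8.26 ± 0.24) and Tsc1-deficient CD4 cells at 0 h (arrays at 7.76 to 8.18), each overlapping the next. Mxd1 ran from stimulated Tsc1-deficient (8.74 ± 0.03) and wild-type CD4 cells (7.14 ± 0.20) to the unstimulated CD4 groups (5.98 ± 0.20 and 5.76 ± 0.09, overlapping) and the CD8 groups (5.34 ± 0.10 and 5.12 ± 0.08). The brightest Mxd4 probe set ran in another order, with unstimulated Tsc1-deficient CD4 (8.77 ± 0.16) and CD8 cells (8.57 ± 0.03) on top and wild-type CD8 cells (7.79 ± 0.14) at the bottom. At probe set 1422574_PM_at stimulated Tsc1-deficient CD4 cells had the highest mean (5.88 ± 0.14). Unstimulated Tsc1-deficient CD8 (5.76 ± 0.03) and CD4 cells (5.71 ± 0.19) followed, with overlapping arrays. At its brightest probe set, Mxi1 followed the order of the brightest Mxd1 probe set, with an exception. Wild-type CD4 cells at 0 h (7.17 ± 0.16) were above Tsc1-deficient ones (7.03 ± 0.15), with overlapping arrays. Mnt stayed between 7.86 and 8.20 in all 6 group means, and Mxd3 between 4.08 and 4.68.

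Genes with the most similar pattern were looked up for the 3 genes whose group means spanned at least 1, by Pearson's r of log2 values over the 16 arrays among 3541 genes that spanned as much. For Mxd1 they were Cish (r = 0.98), a cytokine-inducible suppressor of signalling, Josd1 (0.97), Ttc36 (0.97), Samhd1 (0.97) and Stat2 (0.97). For Mxi1 they were Tsc22d2 (0.99), the histone gene H2bc4 (0.98), Ramp3 (0.97), Cish (0.96) and the RNA-binding protein gene Qk (0.96). For Myc they were Tle1 (0.84), Rras2 (0.81), Simc1 (0.80), Tuba1c (0.79) and Eml5 (0.78). The arrays share their groups, so these values mainly rank how alike the group means are.

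The wider Max and Mlx network was represented by Mycn, Mycl, Mlx, Mlxip, Mlxipl and Mga, all 6 measured. Of these, Mlxip and Mlxipl encode nutrient-sensing factors that pair with Mlx in place of Max. Mlx fell on stimulation in both genotypes, by 0.72 in wild-type (-0.72, adjusted p = 0.00179) and by 1.06 in Tsc1-deficient cells (-1.06, adjusted p = 4.65e-05). These were 1 of 6 genes called in wild-type and 2 of 6 in Tsc1-deficient cells, where Mlxip, which encodes its partner MondoA, also rose (0.41, adjusted p = 0.0161). The Mlxip call was lost without Tsc1-deficient 0 h replicate 3 (0.36, adjusted p = 0.0704) or 4 h replicate 1 (0.24, 0.0693). The difference of the Mlx responses was -0.34 (interval -0.80 to 0.12, adjusted p = 0.694). By genotype 0 of the 6 passed in limma at 0 h or 4 h or in CD8 cells, and 0, 1 and 0 of them had an unadjusted p under 0.05. The median change of the 6 was 0.01 and 0.15 on stimulation in wild-type and Tsc1-deficient cells, against -0.01 and -0.02 over all genes.

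Cofactors of Myc and the Mxd proteins and factors that control Myc turnover (28 genes named, 22 measured) were next. On stimulation 10 rose and 3 fell in wild-type cells, and 12 rose and 4 fell in Tsc1-deficient cells, with medians of 0.22 and 0.31. Of all genes, 30.4% were called in wild-type (12.0% higher) and 34.1% in Tsc1-deficient cells (13.2% higher). The deubiquitinase gene Usp37 (1.07 and 1.48), the elongation factor cyclin Ccnt1 (0.97 and 1.07) and Fbxw7 (0.61 in each), the ubiquitin ligase subunit that marks Myc for degradation, rose in both genotypes. Sin3a, the scaffold that Mxd proteins recruit, rose by 0.41 and 0.69, and the acetyltransferase gene Kat2a fell by 1.10 (-1.10) and 0.71 (-0.71). By genotype, Fbxw7 was 0.76 higher in Tsc1-deficient CD8 cells (7.76 ± 0.04 in wild-type, 8.52 ± 0.16 in Tsc1-deficient; adjusted p = 0.00251), the 1 gene of 22 called there; a fit of only those 4 arrays gave adjusted p = 0.191. In CD4 cells Fbxw7 was 0.29 higher at 0 h (adjusted p = 0.149) and 0.29 higher at 4 h (adjusted p = 0.12), and the lineages were not shown to differ (0.47, interval 0.13 to 0.80, adjusted p = 0.608). At 0 h in CD4 cells 0 of 22 passed in limma, with 7 at an unadjusted p under 0.05, and at 4 h 2 passed, Zbtb17 (0.33, adjusted p = 0.044) and Stub1 (-0.31, adjusted p = 0.0419). Zbtb17 lost its call in 17 of 26 alternative fits (0.28 to 0.37, adjusted p up to 0.178), among them those without any 1 array other than Tsc1-deficient CD4 0 h replicate 2 and the Tsc1-deficient CD8 arrays. Stub1 lost it in 16 (-0.34 to -0.28, adjusted p up to 0.167), among them those without any 1 array other than wild-type 0 h replicate 1, Tsc1-deficient 4 h replicate 3 and the Tsc1-deficient CD8 arrays.

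Genes that Myc is known to activate (53 named, 48 measured) split in both directions on stimulation: 8 rose and 10 fell in wild-type cells, and 14 rose and 10 fell in Tsc1-deficient cells, 18 and 24 of 48 against 30.4% and 34.1% of all genes. The medians of -0.01 and -0.03 lay beside those of all genes, -0.01 and -0.02. All are changes relative to the array, after quantile normalization. Odc1, the first enzyme of polyamine synthesis, rose most, from 4.95 ± 0.13 to 7.55 ± 0.24 in wild-type (2.60, adjusted p = 5.84e-07) and from 5.17 ± 0.14 to 8.68 ± 0.61 in Tsc1-deficient cells (3.51, adjusted p = 1.82e-08). Ahcy, of the methyl cycle, rose by 1.38 and 1.02 in wild-type and Tsc1-deficient cells. E2f2, a cell cycle regulator, fell by 2.34 (-2.34) and 2.84 (-2.84), the transcription factor gene Tfap4 by 1.74 (-1.74) and 0.96 (-0.96), Cad, of pyrimidine synthesis, by 1.17 (-1.17) and 1.16 (-1.16), and the kinase gene Cdk4 by 0.71 (-0.71) and 1.14 (-1.14). The difference of the Odc1 responses was 0.91 (interval 0.20 to 1.63, adjusted p = 0.365).

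Loss of Tsc1 raised 4 of these 48 genes in unstimulated CD4 cells and lowered 0, where 4.35% of all genes were called. E2f2 went from 6.09 ± 0.26 to 7.63 ± 0.23 (1.54, adjusted p = 6.62e-05) and Wdr12, a ribosome biogenesis factor, from 7.60 ± 0.06 to 8.65 ± 0.09 (1.05, adjusted p = 0.000163). E2f1 (0.70) and Cdk4 (0.58) also passed. E2f1 lost its call without wild-type replicates 1 (0.67, adjusted p = 0.0628) or 3 (0.69, 0.0608) or Tsc1-deficient replicates 2 (0.67, 0.0679) or 3 (0.68, 0.0567), and Cdk4 without wild-type replicate 2 (0.53, 0.0558) or Tsc1-deficient replicate 1 (0.51, 0.0602). The median of the 48 was -0.01, against 0.01 for all genes.

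At 4 h, 3 of the 48 were higher and 0 lower in Tsc1-deficient cells, where 7.56% of all genes were called. They were Odc1 (1.13, adjusted p = 0.00943), E2f2 (1.04, adjusted p = 0.00148) and the cyclin gene Ccnd2 (0.54, adjusted p = 0.0232). Odc1 lost its call without wild-type 4 h replicate 1 (1.01, adjusted p = 0.0515) and with only the groups compared (adjusted p = 0.0653), and Ccnd2 without Tsc1-deficient 4 h replicate 1 (0.36, 0.0633) or wild-type 4 h replicates 1 (0.54, 0.0695) or 2 (0.48, 0.104). In CD8 cells, E2f2 (2.27, from 5.28 ± 0.04 to 7.56 ± 0.13), Wdr12 (1.01) and E2f1 (0.82) were higher, and Ddx21, a nucleolar helicase gene, was lower (-0.73), 4 of 48 against 4.18% of all genes. With only those 4 arrays in the fit, E2f2 alone of these kept its call, and E2f1 lost it also without Tsc1-deficient replicate 2 (0.76, adjusted p = 0.0806) or wild-type replicate 2 (0.61, 0.202). Ddx21 lost it also without Tsc1-deficient CD8 replicate 2 (-0.51, adjusted p = 0.208), either wild-type CD8 array (-0.79, 0.14 and -0.66, 0.199), Tsc1-deficient 0 h CD4 replicate 2 (0.0506) or wild-type 4 h replicates 2 and 3 (0.0505 and 0.0507).

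**Figure D4:**
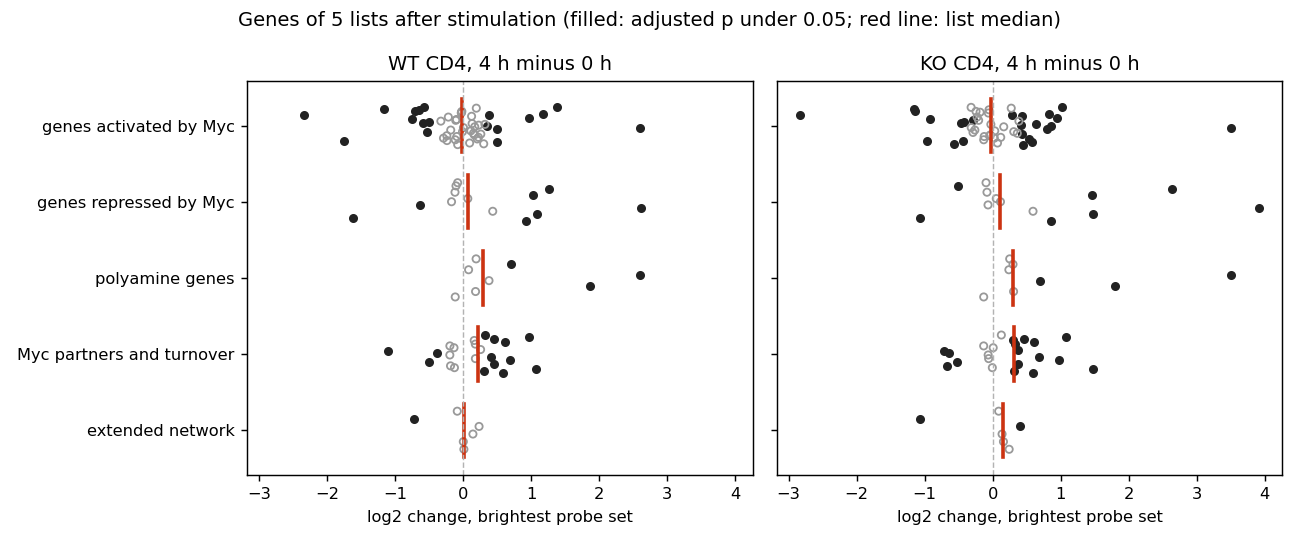
Log2 change on stimulation (4 h minus 0 h) of each measured gene of 5 lists, in wild-type (left) and Tsc1-deficient (right) CD4 cells; filled points passed the adjusted threshold, open points did not, and the red line is the list median. Genes activated by Myc lie on both sides of 0 with medians of -0.01 and -0.03, and Odc1 is the highest of them, at 2.60 and 3.51.

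Genes that Myc is known to repress (13 named and measured) had 5 called higher and 2 lower on stimulation in each genotype, against 30.4% and 34.1% of all genes called, with medians of 0.07 and 0.12. The stress gene Gadd45b rose by 2.62 in wild-type and 3.93 in Tsc1-deficient cells, the cell cycle inhibitor gene Cdkn1a by 1.27 and 2.64, and Ndrg1 by 1.09 and 1.48, while Ndrg2 fell by 1.61 (-1.61) and 1.07 (-1.07). At 4 h Gadd45b (1.46, adjusted p = 0.00407) and Cdkn1a (1.27, adjusted p = 0.00504) were higher in Tsc1-deficient cells. Ndrg1 was lower at 0 h (-1.04, adjusted p = 0.0014) and at 4 h (-0.65, adjusted p = 0.0237), the latter not without Tsc1-deficient 4 h replicates 1 (-0.60, 0.0751) or 3 (-0.55, 0.0857) or wild-type 4 h replicates 1 (-0.52, 0.117) or 2 (-0.64, 0.0777). In CD8 cells 0 of 13 passed in limma, with 2 at an unadjusted p under 0.05. The difference of responses was 1.31 for Gadd45b (adjusted p = 0.214) and 1.38 for Cdkn1a (adjusted p = 0.113), and 0 of 13 passed in limma, with 4 at an unadjusted p under 0.05.

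Of the polyamine genes (12 named, 8 measured), which include Odc1, 3 rose and 0 fell on stimulation in each genotype, where 30.4% and 34.1% of all genes were called. Besides Odc1, the oxidase gene Smox rose in both, by 1.86 and 1.80. Azin1, an inhibitor of antizyme, was called in wild-type cells (0.71, adjusted p = 0.0132), though not without 0 h replicate 2 (0.60, 0.0667) or 4 h replicate 1 (0.63, 0.058), and read 0.30 higher in Tsc1-deficient cells (adjusted p = 0.317). Sat1, of polyamine catabolism, was called in Tsc1-deficient cells (0.70, adjusted p = 0.00186) and read 0.38 higher in wild-type cells (adjusted p = 0.0821), and 0 of 8 differed in response, with 1 at an unadjusted p under 0.05. By genotype Odc1 at 4 h was the 1 gene called, and 0 of 8 passed in limma at 0 h in either lineage, with 0 at an unadjusted p under 0.05.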

How the data were processed

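RNA of sorted naive T cells was hybridised to Affymetrix mouse arrays, 1 colour, biotin label. The deposited values are log2 signals, which the authors made with RMA in Partek 6.5, per the submitters' processing notes, and they were used as deposited. Raw scans were not used here, and no genome build is named in the sources used here. Arrays carry no read depth, and the number of arrays limits the precision.

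Groups were read from the labelled genotype, cell type and treatment; replicates are numbered in accession order. Of 45141 probe sets, 104 controls were left out. Of the rest, 28898 name 1 gene, 551 several and 15588 none, giving 17097 genes. Entrez identifiers of 28689 were found in the RefSeq gene table, and 0 symbols changed.

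Group means over the 16 arrays were fitted with limma 3.58.1 in R 4.3.3 (residual df 10, prior df 5.19, prior SD 0.152). Adjustment of p-values was by Benjamini-Hochberg over 45037 probe sets within each of 9 comparisons, and intervals are 95%. The fit was tested on simulated data. Gene lists (wider network, partners and turnover, activated, repressed, polyamine) and markers of 9 cell types are described by counts and medians; summed signals are of the linear values. The genes named are the members, Tsc1, up to 5 called genes of a list per comparison by absolute change (other listed genes as values only), and the 5 genes most like each member whose group means spanned at least 1. The members and lists were chosen with earlier results of these data known. Alternatives were: 1 probe set per gene, averaged probe sets, a filter on dim probe sets, arrays centred on their medians or quantile normalized again, a robust prior with intensity trend, array weights, only the groups compared, leaving out the 2 arrays with high 3' to 5' control differences, a random block of neighbouring title numbers, and leaving out each array. Figures used matplotlib 3.10.9.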

Additional observations from a re-analysis of the deposited data

Results flagged for a closer look

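Mxd1 responded differently to stimulation in the genotypes, by a test of the difference itself: 1.38 ± 0.17 larger in Tsc1-deficient CD4 cells (adjusted p = 0.00199). All 3 Tsc1-deficient arrays at 4 h were above all 3 wild-type arrays at 4 h. Its probe set 1455104_PM_at gave 0.92 (adjusted p = 0.0421), which was lost in 15 of 24 alternative fits.

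Wdr12, a ribosome biogenesis gene from the list of genes activated by Myc, responded in the other direction. The difference of its responses was -0.87 ± 0.18 (interval -1.25 to -0.50, adjusted p = 0.0426), and it was the 1 of 48 genes of that list to pass. Its mean was 7.60 ± 0.06 at 0 h and 7.91 ± 0.06 at 4 h in wild-type cells, and 8.65 ± 0.09 and 8.08 ± 0.16 in Tsc1-deficient cells. The call was lost when any 1 of 13 arrays was left out: the 6 wild-type CD4 arrays, the 3 Tsc1-deficient 0 h arrays, Tsc1-deficient 4 h replicates 1 and 2, and both wild-type CD8 arrays (-0.92 to -0.78, adjusted p 0.0663 to 0.133). The difference kept its sign in every alternative fit, and its call with the probe sets of the gene averaged. With that average, the change on stimulation in Tsc1-deficient cells was -0.06 and was not called (adjusted p = 0.72).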

How the results depend on the processing

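No paired analysis was possible because the labels give no replicate numbers. As a stand-in, arrays with neighbouring title numbers were entered as a random block, with an estimated correlation of 0.0285, and no count of genes called changed by it. Of 135 results on the 15 probe sets, 26 were called, 13 of them in every alternative fit in which the probe set could be tested; 0 reversed. Of 130 called results on Tsc1 and the listed genes, 83 were called in all.

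Genes called by genotype in stimulated CD4 cells were 1, and 2 in the fit of 1 probe set per gene. In CD8 cells they were 2, against 3 with averaged probe sets, 1 with median centring, 1 with array weights and 0 with only the groups compared. Between lineages in Tsc1-deficient cells they were 2, against 0 with averaged probe sets and 1 with quantile normalization, array weights, only the groups compared, or without the arrays with high control differences. Leaving out 1 array gave 1 to 1 genes for genotype in unstimulated and 1 to 2 in stimulated CD4 cells, 0 to 3 in CD8 cells, 2 to 3 and 4 to 5 for stimulation in wild-type and Tsc1-deficient cells, 1 to 1 for the difference of responses, 0 to 0 for the difference between lineages, and 0 to 1 and 1 to 2 for lineage in wild-type and Tsc1-deficient cells. With only the groups compared, fewer arrays set the spread. For genotype in CD8 cells that fit called 39 of 45037 probe sets, against 1402 in the main fit. The cause of the other changes was not tested. With 2 or 3 arrays a group, a difference that does not pass is not shown to be absent. Dim probe sets, below the table median, say little about their transcripts.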

Other observations

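Genes around Myc were also compared between lineages at 0 h. The 3' to 5' control difference was higher on every CD8 array than on every CD4 array at 0 h, and its part here was not tested. In wild-type cells, CD8 cells had 3 higher and 1 lower of the 48 genes activated by Myc, with a median of 0.24 against 0.02 for all genes, 3.95% of which were called. By unadjusted p under 0.05, 18 of the 48 differed there, and 17 in Tsc1-deficient cells. In Tsc1-deficient cells 4 were higher and 0 lower, with a median of 0.18 against 0.00 and 4.98% of all genes called. The transferrin receptor gene Tfrc (0.84 and 0.50) and Shmt2, of mitochondrial one-carbon metabolism (0.77 and 0.98), were called higher in CD8 cells of both genotypes. In Tsc1-deficient cells the Tfrc call was lost without CD4 replicate 1 (0.44, adjusted p = 0.115) or 2 (0.48, 0.1) or CD8 replicate 2 (0.38, 0.257), and in wild-type cells the Shmt2 call was lost without either CD8 array (adjusted p 0.0564 and 0.0625). Of the 13 genes repressed by Myc, Ndrg1 (-0.72), Ndrg2 (-0.87) and Cdkn1b (-0.42) were called lower in wild-type CD8 cells. Each of these calls was lost without either wild-type CD8 array or without wild-type CD4 replicate 1 or 3, and that of Ndrg1 also without wild-type CD4 0 h or 4 h replicate 2 or Tsc1-deficient CD4 0 h replicate 2, with adjusted p from 0.0509 to 0.314.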
